A study of Mus musculus with 18 samples.

Results

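The mRNAs of cadherins, teneurins and synaptic adhesion proteins were followed through an acetylation map of the mouse hippocampus. The map recorded N4-acetylcytidine (ac4C), a cytidine with an acetyl group that the enzyme Nat10 writes into RNA. It was made by acRIP-seq, in which RNA fragments are pulled down with an anti-ac4C antibody, sequenced, and compared with an input library of the same mouse. Members were chosen by name alone: every gene with at least 1 listed ac4C peak in any mouse and a symbol of the protocadherins (Pcdh), numbered cadherins (Cdh), Celsr, Fat, neurexins (Nrxn), neuroligins (Nlgn), Lrrtm, Lrfn, Slitrk, contactins (Cntn), contactin-associated proteins (Cntnap), teneurins (Tenm), latrophilins (Lphn or Adgrl), Ncam, L1cam or Nfasc. The rule took 77 of the 7598 gene names with a peak, in 13 families. These are 75 genes, because 2 latrophilins were listed under both an old and a current symbol.

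Hippocampi came from 3 5xFAD mice and 3 WT mice, all 6 months old. 5xFAD mice carry mutant human transgenes of familial Alzheimer disease, among them APP with the Swedish, Florida and London mutations, made in the C57BL/6J strain and driven by the Thy1 promoter, which is active mainly in neurons. WT mice carry no transgene. The comparison asks how ac4C on these mRNAs differs once the amyloid model has reached this age. Each table held the peaks of 1 mouse from the whole hippocampus, so fewer cells of a type and less RNA per cell cannot be told apart.

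Cadherins and protocadherins hold membranes together through their repeated extracellular domains, and the classical ones bind catenins that link them to actin. Neurexins on the presynaptic side bind neuroligins, Lrrtm proteins and other partners across the cleft, and teneurins bind latrophilins in the same way. L1cam, neurofascin (Nfasc), the contactins and the contactin-associated proteins hold axons, glia and the axon initial segment or node of Ranvier in place.

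Adhesion mRNAs held 640 of the 52494 listed peaks. The 5xFAD mice had 123, 128 and 118 peaks on 53, 58 and 58 of the 77 names, against 104, 95 and 72 peaks on 44, 48 and 34 names in the WT mice. All 3 5xFAD mice lay above all 3 WT mice in both counts. They also had more peaks over all mRNAs, between 8459 and 10234 against between 7434 and 8375. All mRNAs with a peak numbered between 4407 and 5133 in the 5xFAD mice and between 4268 and 4589 in the WT mice, which overlapped. As a share of all peaks, adhesion peaks made up 1.20%, 1.27% and 1.39% in the 5xFAD mice and 1.24%, 1.20% and 0.969% in the WT mice, and these ranges overlapped. The fold enrichment of a peak, as the authors deposited it, measures the pulldown against the input. Its median over adhesion peaks was 7.38, 7.58 and 13.9 in the 5xFAD mice and 7.18, 6.62 and 6.96 in the WT mice. 5xFAD mouse 3 stood apart from the other 5 mice, here and over all peaks, where its median was 13.1 and the others lay between 6.88 and 7.63. Its weakest listed peak had a fold enrichment of 4.06, against between 2.03 and 2.29 in the other mice, and 6840 of its 8459 peaks were listed at a false discovery rate of 100%.

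An mRNA was called reliable in a genotype when at least 2 of its 3 mice had a peak. Of the 77 names, 57 were reliable in 5xFAD and 45 in WT. Reliable in 5xFAD alone (AD unique) were 12, all others of the 57 were reliable in both genotypes (overlay, 45), and none was reliable in WT alone (AD absent). The AD unique share of the 57 was 21.1%, beside 18.5% of the 5444 reliable mRNAs of the whole series, and AD absent mRNAs made up 10.8% of the whole series. With the same number of strongest peaks kept in each mouse, 7 members were AD unique (14% of the reliable members, all mRNAs 12.3%) and 4 AD absent (8%, all mRNAs 17%). Without 5xFAD mouse 3 there were 6 and 7 (11.8% and 13.7%, all mRNAs 12.2% and 24.3%). Leaving out WT mouse 1, 2 or 3 instead gave 28, 29 and 21 AD unique members (49.1%, 50.9% and 36.8%, all mRNAs 38.8%, 38.6% and 35.2%) and 0 AD absent, so the class sizes followed how many mice of a genotype were left. Among the AD unique members were Cntnap1, Cntnap4, Cdh13, Pcdh10, Pcdh17 and the clustered protocadherins Pcdhb2, Pcdhb7, Pcdhb13, Pcdhb20, Pcdhb22 and Pcdhga3. Another 22 names had a peak in all 6 mice and 17 in 1 mouse only, of which Slitrk3, a postsynaptic partner of receptor phosphatases, was the single name listed only in a WT mouse.

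The level of an mRNA is given as the sum of the fold enrichments of its peaks, 0 where a mouse had none, and differences are on the log2(fold enrichment + 1) scale, 5xFAD minus WT. No member changed at an adjusted p under 0.05 in limma (Benjamini-Hochberg over all 5444 reliable mRNAs, smallest member value 0.401), and 0% of all mRNAs did. At an unadjusted p under 0.05, 3 members were higher and 0 lower, with 5.03% of all mRNAs higher, and with the mouse number as a block 7 members were higher, with 5.88% of all mRNAs. Among the 57 reliable members 51 had a positive and 6 a negative difference with a median of 0.62, close to the 0.54 of all reliable mRNAs, and on one scale the split was 32 to 25 and the median 0.047. One scale means that the values of each mouse were multiplied by a factor that gave the mRNAs present in all 6 mice the same median, which brought the median of all mRNAs to 0.021. The 12 AD unique members entered only through the 5xFAD mice, which favours a positive difference for them, and no member entered only through the WT mice. The 45 overlay members gave a median of 0.48 with 39 positive and 6 negative differences as deposited (all overlay mRNAs 0.46), and a median of -0.035 with 20 positive and 25 negative on one scale (all overlay mRNAs -0.038). In limma 0 of them passed, with 0% of all overlay mRNAs called, and 1 was higher at an unadjusted p under 0.05, beside 2.39% of all overlay mRNAs.

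**Figure D1:**
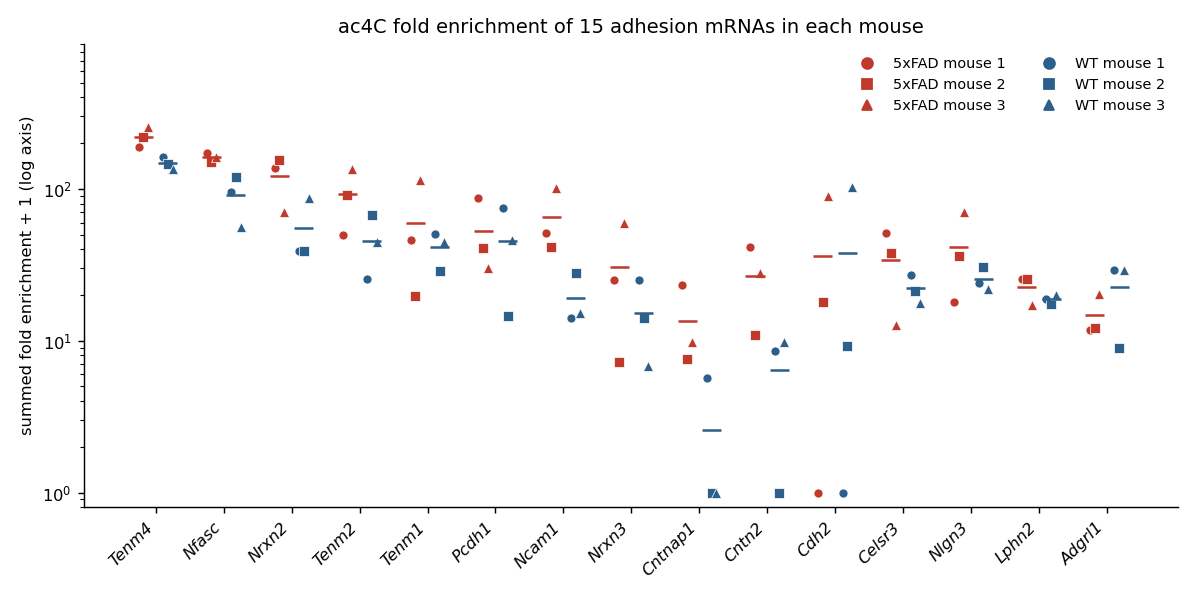
Summed fold enrichment plus 1 (ratio of pulldown to input, log axis) of 15 adhesion mRNAs in each mouse, 5xFAD mice in red left of WT mice in blue, marker shapes for mouse numbers and a line at each mean (n = 3). Tenm4 was the highest of these mRNAs in every mouse, and the genotypes did not overlap for Tenm4, Nfasc, Ncam1, Cntnap1 and Cntn2.

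In 6 of the 57 members every 5xFAD mouse stood above every WT mouse (among them Cntnap1, Cntn2, Nfasc, Ncam1 and Tenm4), a pattern seen in 14.6% of all reliable mRNAs. In 0 members was every 5xFAD mouse below every WT mouse, against 0.771% of all mRNAs. All 13 families had a positive median difference as deposited, and on one scale 7 families stayed above 0 and 6 lay below it. The contactin-associated proteins (median 2.02, 3 reliable members), clustered protocadherins (1.42, 11 members) and immunoglobulin adhesion molecules (1.32, 4 members) had the highest medians, which on one scale were 1.95, 1.00 and 0.72. Of these, 2 of 3 contactin-associated proteins and 6 of 11 clustered protocadherins were AD unique. Over overlay members alone, Cntnap2 was left of the contactin-associated proteins (0.62, on one scale 0.040) and the 5 clustered protocadherins had a median of 0.48 (0.047 on one scale). The lowest were the leucine-rich repeat postsynaptic proteins (0.17, 6 members), latrophilins (0.37, 4 names) and non-clustered protocadherins (0.41, 7 members), and on one scale these 3 medians lay at -0.24, -0.15 and -0.021. Without 5xFAD mouse 3, 12 families had a positive median as deposited and the latrophilins a negative one (-0.13), and the leucine-rich repeat proteins and non-clustered protocadherins had medians of 0.86 and 0.90.

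**Figure D2:**
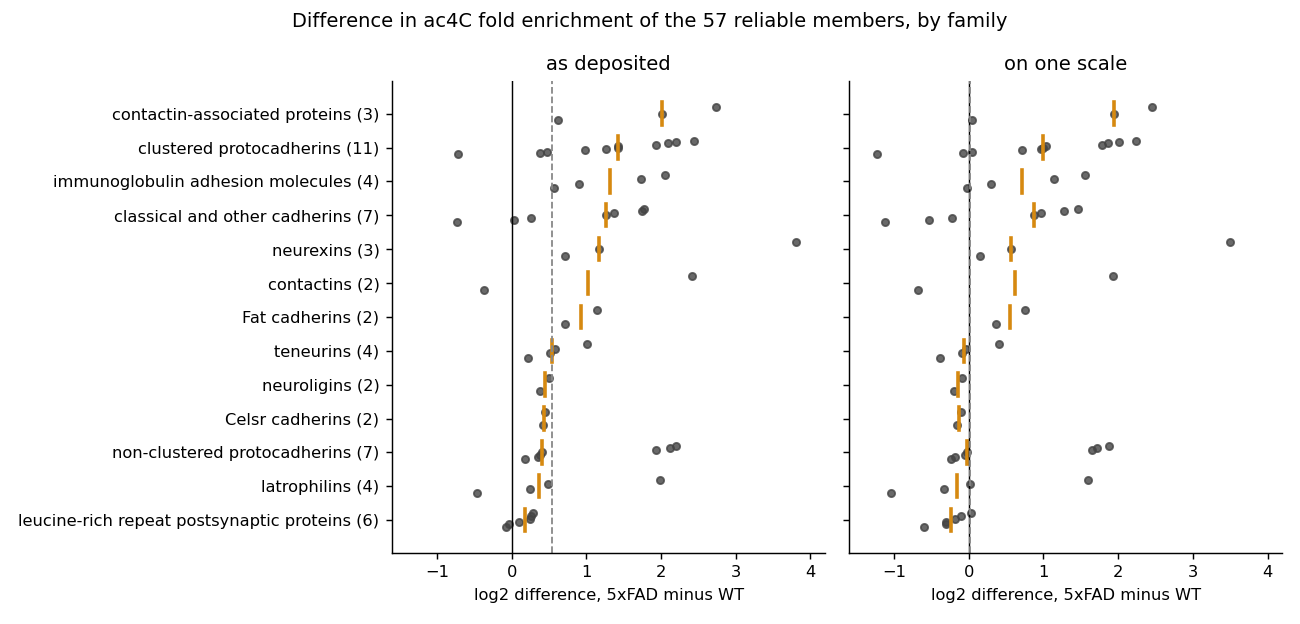
Log2 differences (5xFAD minus WT, log2(fold enrichment + 1)) of the 57 reliable adhesion mRNAs by family, as deposited (left) and on one scale (right). Each point is an mRNA, the orange line the family median, the number in brackets the count of mRNAs and the dashed line the median of all reliable mRNAs (0.54 and 0.021). All 13 family medians lay above 0 as deposited, and 6 of them lay below 0 on one scale.

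Teneurins, large transmembrane proteins that bind latrophilins across the synapse, were the most enriched family. Tenm4 ranked 9th among all mRNAs by its mean over the 6 mice. Tenm4 had summed fold enrichments of 188.08, 218.72 and 252.74 in the 5xFAD mice and 161.5, 144.72 and 133.48 in the WT mice. Its genotypes did not overlap, but the difference of 0.58 ± 0.50 (SE) did not pass (limma adjusted p = 0.813) and on one scale it was -0.035. Tenm2 had 49.04, 90.33 and 133.29 in the 5xFAD mice and 24.32, 65.98 and 43.44 in the WT mice (difference 1.01 ± 0.67, limma adjusted p = 0.727). Tenm1 had 45.12, 18.74 and 112.86 against 49.62, 27.86 and 43.62 in the WT mice, and Tenm3 36.3, 33.51 and 58.85 against 41.25, 35.15 and 16.49 in the WT mice. Both overlapped between genotypes, and 5xFAD mouse 3 was the highest of the 6 for all 4 teneurins. Without this mouse the differences of Tenm1, Tenm2, Tenm3 and Tenm4 were -0.42, 0.68, 0.26 and 0.47.

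In every teneurin the region with the highest mean was the equivalent exon of the gene. A region is a stretch where peaks of any mice overlapped on the same strand, and the tables place a peak to the exon, not to the base. The exons are printed because the family's signal centred on them, 5′ to 3′ on the coding strand, read from the RefSeq genome GRCm38.p6, which is the mm10 build of the peak tables. Capitals mark matches to a pattern of 4 CNN triplets in a row (C a cytosine, N any base), searched on the RNA strand with overlaps allowed. Tenm1 exon 5 lies at chrX:42937714-42937954 (minus strand), Tenm2 exon 4 at chr11:36300196-36300430 (minus), Tenm3 exon 3 at chr8:48417008-48417245 (minus) and Tenm4 exon 7 at chr7:96694770-96695025 (plus), all coding.
Tenm1 exon 5: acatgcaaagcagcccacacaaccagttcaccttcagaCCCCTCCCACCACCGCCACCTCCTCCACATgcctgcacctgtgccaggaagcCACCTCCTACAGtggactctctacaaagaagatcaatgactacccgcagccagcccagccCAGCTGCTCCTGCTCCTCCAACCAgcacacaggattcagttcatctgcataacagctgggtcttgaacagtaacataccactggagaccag
Tenm2 exon 4: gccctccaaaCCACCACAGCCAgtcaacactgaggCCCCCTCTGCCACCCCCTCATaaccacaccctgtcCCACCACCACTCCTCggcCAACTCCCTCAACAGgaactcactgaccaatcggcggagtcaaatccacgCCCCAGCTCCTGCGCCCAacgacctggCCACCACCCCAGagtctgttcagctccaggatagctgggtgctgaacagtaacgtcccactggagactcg
Tenm3 exon 3: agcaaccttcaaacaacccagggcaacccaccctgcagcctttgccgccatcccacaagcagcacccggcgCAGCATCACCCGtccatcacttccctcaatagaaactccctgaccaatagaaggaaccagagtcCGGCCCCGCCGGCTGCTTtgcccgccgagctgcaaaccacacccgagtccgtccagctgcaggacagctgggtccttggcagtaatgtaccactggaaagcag
Tenm4 exon 7: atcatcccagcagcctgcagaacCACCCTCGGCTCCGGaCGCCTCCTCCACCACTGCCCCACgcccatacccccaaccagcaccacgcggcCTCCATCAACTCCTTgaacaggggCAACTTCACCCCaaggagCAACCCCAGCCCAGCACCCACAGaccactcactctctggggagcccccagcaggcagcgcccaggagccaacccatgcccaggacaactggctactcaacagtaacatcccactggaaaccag

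These 4 exons were compared after their values had been seen, so what follows is a description with no test. They measure 241, 235, 238 and 256 bases and hold between 38.7% and 44.9% cytosine, against a median of 28.2% over all adhesion regions. Aligned with each other they were between 57.5% and 66.9% identical in the 6 pairs. The comparison took the 22 shorter, wholly coding exons with a region, so longer exons and exons without a peak were not searched. The other 155 pairs between teneurins, not sorted by whether the exons are equivalent, had a median identity of 45.2%. Within the 22, each of the 4 exons was the best match of the others in 12 of 12 searches. The 4 were picked as the best matches of Tenm4 exon 7, the strongest region of Tenm4. The searches from that exon, and its rank within Tenm4, were therefore fixed by this choice. The exon stood first among the 5, 8, 7 and 18 regions of Tenm1, Tenm2, Tenm3 and Tenm4. It held 42.2%, 37.2%, 45.4% and 42.0% of the summed fold enrichment of Tenm1, Tenm2, Tenm3 and Tenm4 in the 5xFAD mice and 38.2%, 40.7%, 39.5% and 34.3% in the WT mice.

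The fold enrichment of Tenm4 exon 7 was 64.53, 80 and 132.34 in the 5xFAD mice and 56.07, 45.23 and 49.34 in the WT mice, the highest mean of all adhesion regions. Every 5xFAD mouse stood above every WT mouse there, with a difference of 0.80 ± 0.57 (limma adjusted p = 0.750). Tenm3 exon 3 had 13.8, 13.14 and 31.46 in the 5xFAD mice and 14.72, 12.46 and 9.52 in the WT mice, which overlapped. Tenm1 exon 5 had a peak in both mice numbered 1 (19.83 in 5xFAD, 27.23 in WT) and both numbered 3 (54.82 in 5xFAD, 19.01 in WT), and none in either mouse numbered 2. Tenm2 exon 4 had a peak in both mice numbered 2 (39.85 in 5xFAD, 31.9 in WT) and both numbered 3 (61.63 in 5xFAD, 22.59 in WT), and none in either mouse numbered 1. Presence therefore went by mouse number for these 2 exons and not by genotype.

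**Figure D3:**
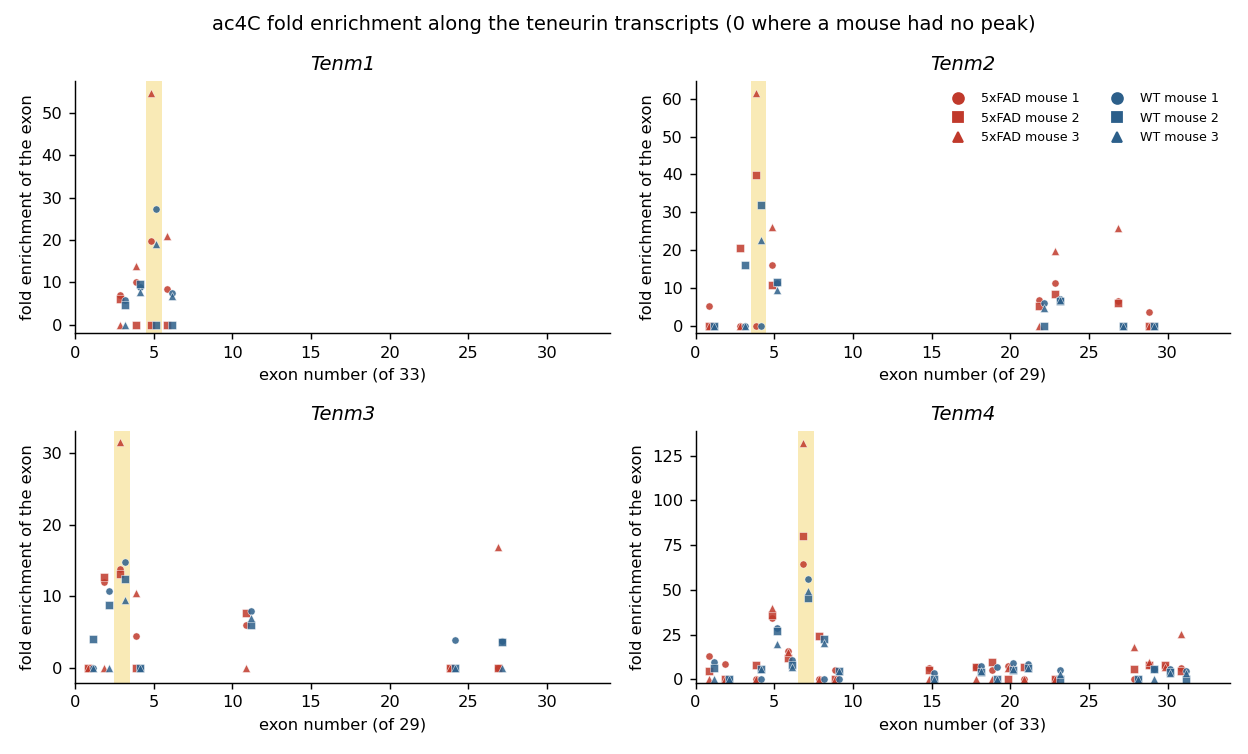
Fold enrichment of each teneurin region by exon number in the reference transcript, 1 point per mouse (5xFAD in red, WT in blue), 0 where a mouse had no peak, with the 1 region outside these exons left out and a different vertical scale in each panel. The equivalent exons (Tenm1 exon 5, Tenm2 exon 4, Tenm3 exon 3 and Tenm4 exon 7), shaded, had the highest mean over the 6 mice in each gene.

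Tenm4 exon 5, 2 exons upstream of that exon in the same transcript, was another of the 4 strongest adhesion regions. It lies at chr7:96553478-96553747 (plus strand), is coding, and holds 33.0% cytosine with 3 matches. The equivalent exons of Tenm1, Tenm2, Tenm3 and Tenm4 hold 17, 13, 4 and 13 matches. In matches Tenm4 exon 5 was thus far from exon 7 of the same gene but close to Tenm3 exon 3.
Tenm4 exon 5: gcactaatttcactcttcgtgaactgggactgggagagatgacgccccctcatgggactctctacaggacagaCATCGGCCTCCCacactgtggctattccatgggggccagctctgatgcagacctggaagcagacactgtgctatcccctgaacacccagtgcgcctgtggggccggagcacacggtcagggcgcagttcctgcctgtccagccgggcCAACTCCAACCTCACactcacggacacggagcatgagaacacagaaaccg
Its fold enrichments of 34.11, 35.68 and 39.81 in the 5xFAD mice lay above 28.45, 26.69 and 19.88 in the WT mice, with a difference of 0.54 ± 0.52 (limma adjusted p = 0.856) that was -0.052 on one scale. Tenm2 exon 27 had a peak in the 3 5xFAD mice (6.6, 5.88 and 25.71) and in no WT mouse. Tenm4 exon 21 leaned the other way, at 0, 6.69 and 0 in the 5xFAD mice and 8.67, 6.33 and 6.13 in the WT mice (limma adjusted p = 0.482).

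Nfasc encodes neurofascin, which gathers sodium channels at the axon initial segment and, as a glial form, seals the myelin loops beside the node. It had 170.93, 150.13 and 160.04 in the 5xFAD mice and 94.16, 119.36 and 54.9 in the WT mice. The genotypes did not overlap and the 5xFAD mice lay close together, with a difference of 0.90 ± 0.55 (limma adjusted p = 0.691), 0.29 on one scale. Both traits of the Nfasc sums depend on its exon 27, which had no peak in WT mice 1 and 3. That exon gave 67.17, 50.41 and 108.6 of the sums of 5xFAD mice 1, 2 and 3. Ncam1, a homophilic adhesion molecule of neurons and glia, had 50.56, 40.45 and 100.59 in the 5xFAD mice and 13.04, 26.74 and 14.32 in the WT mice. Here too all 5xFAD mice lay above all WT mice, and the difference of 1.73 ± 0.63 had an unadjusted p of 0.0308 (limma adjusted p = 0.582). Ncam2, its relative known from olfactory axons, had 4.85, 9.3 and 90.58 in the 5xFAD mice and 0, 6.19 and 9.75 in the WT mice, where 5xFAD mouse 3 lay far above the rest. Without this mouse the differences of Ncam1 and Ncam2 were 1.35 and 0.87.

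Nfasc exon 27 and Ncam2 exon 6 are printed, the first as the strongest region of Nfasc and the other as the coding exon of this family with a peak in every 5xFAD mouse and no WT mouse. Nfasc exon 27 lies at chr1:132588074-132588310 (minus strand) and Ncam2 exon 6 at chr16:81455290-81455407 (plus strand), with capitals marking the same pattern and the sequences again from RefSeq GRCm38.p6.
Nfasc exon 27: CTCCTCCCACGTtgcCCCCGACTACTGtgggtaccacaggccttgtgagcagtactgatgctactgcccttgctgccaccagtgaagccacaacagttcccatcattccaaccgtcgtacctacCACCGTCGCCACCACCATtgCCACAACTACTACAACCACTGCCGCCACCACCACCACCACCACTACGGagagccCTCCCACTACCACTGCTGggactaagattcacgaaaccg
Ncam2 exon 6: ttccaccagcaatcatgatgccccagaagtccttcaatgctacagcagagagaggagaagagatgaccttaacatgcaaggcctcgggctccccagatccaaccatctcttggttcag
Nfasc exon 27 had 67.17, 50.41 and 108.6 in the 5xFAD mice and 0, 59.04 and 0 in the WT mice (difference 4.21 ± 1.68, limma adjusted p = 0.482). WT mouse 2 lay inside the 5xFAD range, and the other WT mice had no peak. The exon holds 41.4% cytosine and 25 matches of the pattern. Ncam2 exon 6 had 4.85, 3.86 and 12.34 in the 5xFAD mice and no peak in any WT mouse, and holds 29.7% cytosine and 0 matches.

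L1cam, an axonal adhesion molecule on the X chromosome, overlapped between genotypes as a whole, at 26.06, 35.68 and 55.87 in the 5xFAD mice and 28.91, 27.08 and 19.48 in the WT mice. Its peaks at the 5′ end divided by genotype between neighbouring exons. The upstream exon (chrX:73870072-73870279, 5′ UTR, outside the GENCODE transcript used here) had 10.21, 14.8 and 23.91 in the 5xFAD mice and no peak in the WT mice. The exon with the start codon (chrX:73869729-73869916, exon 2) had no peak in the 5xFAD mice and 11.28, 12.02 and 8.17 in the WT mice. Its coding part, from the start codon on, is printed because it is the single stretch of an adhesion mRNA with a peak in every WT mouse and in no 5xFAD mouse (chrX:73869729-73869804, minus strand, capitals as above, RefSeq GRCm38.p6).
L1cam exon 2: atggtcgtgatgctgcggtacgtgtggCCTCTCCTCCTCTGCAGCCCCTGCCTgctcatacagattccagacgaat
The exons lie 155 bases apart, and in 0 of 6 mice were both listed. Because each peak was listed once under 1 exon, a peak that reaches both exons appears under one of them, and whether these are 2 peaks or 1 peak listed under different exons was not tested. The stop codon exon of L1cam had 15.85, 14.11 and 26.28 in the 5xFAD mice and 17.63, 15.06 and 11.31 in the WT mice, which overlapped.

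**Figure D4:**
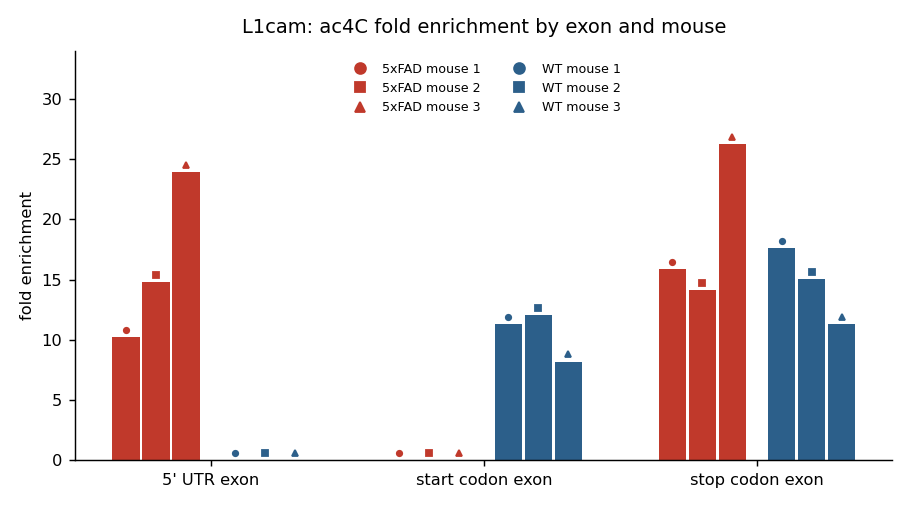
Fold enrichment of 3 L1cam regions, 1 bar per mouse with its marker at the top, 5xFAD in red left of WT in blue, no bar where a mouse had no peak. The upstream 5′ exon had a peak in 3 of 3 5xFAD mice and the start codon exon in 3 of 3 WT mice, with no mouse having both.

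Over the 131 reliable adhesion regions, 94 had a positive and 37 a negative difference as deposited (median 0.50, all 10027 reliable regions 0.44), and 68 and 63 on one scale. No adhesion region passed in limma (smallest adjusted p = 0.0862), and 0% of all regions did. Below an unadjusted p of 0.05 lay 9 with a positive and 1 with a negative difference, beside 4.57% of all regions higher and 0.539% lower. In 16 of the 131 every 5xFAD mouse stood above every WT mouse (13.9% of all regions) and in 1 below (0.658% of all regions). A peak in all 3 5xFAD mice and no WT mouse was found in 4 of the 236 adhesion regions (L1cam 5′ exon, Cntn2 exon 1, Tenm2 exon 27, Ncam2 exon 6), beside 1.19% of all regions, and the opposite in 1 (L1cam start codon exon), beside 0.235%.

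The limma differences were 4.04 ± 0.57 for the L1cam 5′ exon and -3.51 ± 0.52 for its start codon exon, both with an adjusted p of 0.0862. Cntn2 exon 1 (3.30 ± 0.55) had the same adjusted p, Tenm2 exon 27 (3.48 ± 0.72) 0.117 and Ncam2 exon 6 (2.86) 0.136. On one scale 3 adhesion regions passed, where 1.99% of all regions did: both L1cam exons and Cntn2 exon 1, each with a limma adjusted p of 0.0448. With a pseudocount of 0.1 in place of 1, these and the Tenm2 and Ncam2 exons passed, 5 in all (2.83% of all regions). All 5 had a peak in every mouse of 1 genotype and in no mouse of the other. Over all regions 237 passed as higher and 47 as lower at this pseudocount, where 238 and 47 had that pattern. Passing thus restates presence and absence and adds no separate support. With the mouse number as a block, 0 adhesion regions passed (0% of all regions) and their smallest limma adjusted p was 0.143.

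Neurexins, the presynaptic hubs that bind neuroligins, had 3 members and positive differences in all 3, also on one scale (median 1.17, on one scale 0.56). Nrxn2 had 136.5, 154.09 and 69.83 in the 5xFAD mice and 37.77, 38.23 and 86.55 in the WT mice (1.17 ± 0.64, limma adjusted p = 0.633). WT mouse 3 lay above 5xFAD mouse 3 and below the other 5xFAD mice. Nrxn3 had 24.01, 6.22 and 58.26 in the 5xFAD mice and 24.11, 13.06 and 5.79 in the WT mice, which overlapped.

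Nrxn2 had 14 regions and none was found in all 6 mice. Its coding exons 18, 20 and 21 had peaks in 5xFAD mice 1 and 2 (11.3 and 8.04, 37.88 and 33.68, 35.09 and 38.47) and in no other mouse. Its region at chr19:6497828 had 49.21 in 5xFAD mouse 3 and 67.96 in WT mouse 3 and no peak in the other 4. The first 3 exons went with genotype within numbers 1 and 2, and the last region went with number 3 in both genotypes.

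Among the partners of neurexins across the cleft, Nlgn3, a neuroligin of excitatory and inhibitory synapses, had 16.95, 34.86 and 69.44 in the 5xFAD mice and 22.96, 29.73 and 20.75 in the WT mice (0.50 ± 0.67, limma adjusted p = 0.823; -0.094 on one scale). Nlgn2, of inhibitory synapses, had 47.53, 42.51 and 16.09 in the 5xFAD mice and 32.22, 27.71 and 15.98 in the WT mice. Both overlapped between genotypes, though for Nlgn2 each 5xFAD mouse lay above the WT mouse of its number. Nlgn1, of excitatory synapses, was listed in 5xFAD mouse 3 alone (25.31).

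The leucine-rich repeat postsynaptic proteins Lrfn, Lrrtm and Slitrk, which bind receptor phosphatases or neurexins, had the smallest family median. Lrfn1 had 16.81, 45.57 and 10.96 in the 5xFAD mice and 22.06, 27.26 and 7.89 in the WT mice (0.26 ± 0.78, limma adjusted p = 0.932), Lrfn3 had 7.66, 7.85 and 21.31 against 17.95, 6.93 and 11.1 in the WT mice, and Lrfn4 had 12.21, 7.88 and 0 against 9.82, 11.71 and 0 in the WT mice. All 3 overlapped between genotypes. Lrfn2 had 33.5, 0 and 29.19 in the 5xFAD mice and 23.52, 0 and 22.3 in the WT mice, so the mice numbered 2 were without a peak in both genotypes. Latrophilins, the receptors of teneurins, were spread as well. Adgrl1 had 10.79, 11.18 and 19.44 in the 5xFAD mice and 28.27, 7.89 and 28.44 in the WT mice (-0.46 ± 0.70, limma adjusted p = 0.835). Lphn2, an old symbol of Adgrl2, had 24.3, 24.4 and 16.24 in the 5xFAD mice and 17.81, 16.45 and 18.99 in the WT mice. Under its current symbol the same gene had 9.88, 0 and 37.01 in the 5xFAD mice and 15.43, 0 and 8.23 in the WT mice. 5xFAD mouse 3 was thus the lowest under the old symbol and the highest under the current one. Adgrl3 had 7.57, 4.7 and 34.15 in the 5xFAD mice and 6.29, 2.82 and 0 in the WT mice (1.98 ± 1.04, limma adjusted p = 0.598).

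Contactins and their partners act at axons. Cntn2, which holds potassium channels beside the node together with Cntnap2, had 40.46, 9.96 and 27.05 in the 5xFAD mice and 7.57, 0 and 8.8 in the WT mice. All 5xFAD mice lay above all WT mice (2.42 ± 1.08, limma adjusted p = 0.582), and Cntn2 exon 1 (chr1:132542723-132542940, 5′ UTR) had 7.78, 6.57 and 13.31 in the 5xFAD mice and no peak in a WT mouse. Cntnap1, needed for the junction of axon and myelin beside the node, had 22.14, 6.59 and 8.75 in the 5xFAD mice and 4.72, 0 and 0 in the WT mice. It did not overlap either (2.74 ± 0.91, unadjusted p = 0.0220, limma adjusted p = 0.582). Cntnap2 had 12.94, 11.19 and 66.07 in the 5xFAD mice and 12.48, 21.13 and 9.5 in the WT mice, overlapping. Cntn3 had 3.65, 4.84 and 0 in the 5xFAD mice and 0, 6.96 and 6.38 in the WT mice.

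Classical cadherins were led by Cdh2, N-cadherin, the calcium-dependent adhesion molecule of synapses. It had 0, 17.07 and 88.46 in the 5xFAD mice and 0, 8.23 and 101.77 in the WT mice. The values went by mouse number: none in the mice numbered 1, low in those numbered 2, high in those numbered 3 (0.26 ± 2.20, limma adjusted p = 0.984; -0.22 on one scale). Cdh2 exon 1 was listed in 5xFAD mouse 3 (27.19) and WT mouse 3 (94.81) and nowhere else. Cdh24 had 11.17, 16.28 and 0 in the 5xFAD mice and 20.16, 7.28 and 4.55 in the WT mice (-0.74 ± 1.22). Cdh5, the cadherin of vascular endothelium, had 7.26, 20.59 and 28.45 in the 5xFAD mice and 0, 15.74 and 6.87 in the WT mice. These values overlapped between genotypes, though for Cdh5 each 5xFAD mouse lay above the WT mouse of its number.

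Celsr3 and Fat1, very large cadherins known for planar cell polarity and growth control, also overlapped. Celsr3 had 50.51, 36.99 and 11.68 in the 5xFAD mice and 26.25, 20.37 and 16.84 in the WT mice (0.42 ± 0.70, limma adjusted p = 0.852; -0.16 on one scale). Fat1 had 12.12, 15.99 and 8.19 in the 5xFAD mice and 13.32, 12.14 and 0 in the WT mice. Among the non-clustered protocadherins Pcdh1 was highest, with 86.21, 40.05 and 28.92 in the 5xFAD mice and 73.78, 13.62 and 45.38 in the WT mice (0.36 ± 0.82, limma adjusted p = 0.897; -0.24 on one scale). The mice numbered 1 were the highest of each genotype. Pcdh15, known from the hair cells of the inner ear, had 29.66, 23.32 and 36.02 in the 5xFAD mice and 29.59, 18.19 and 19.16 in the WT mice.

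Clustered protocadherins, whose combinations let a neuron tell its own branches from those of others, gave 22 names, of which 21 had 1 region. The 5xFAD mice had 10, 11 and 16 of these names and the WT mice 6, 7 and 4, with no overlap. Over all mRNAs they had 5133, 5062 and 4407 against 4589, 4436 and 4268, which overlapped. Pcdha4, Pcdhb15, Pcdhb16, Pcdhga1 and Pcdhgb5 were listed in 5xFAD mouse 3 alone. Pcdhb4, Pcdhb5, Pcdhb12 and Pcdhga2 were each listed in 5xFAD mouse 1 or 2 alone. Reliable were 11 of the 22 names, and 10 of them had a positive difference as deposited (9 on one scale). Of these 11, 6 were AD unique and so entered only through the 5xFAD mice, and the 5 overlay names divided 4 to 1 as deposited. Pcdhb13 had 3.85, 7.36 and 9.92 in the 5xFAD mice and 0, 4.76 and 0 in the WT mice (2.09 ± 0.87, unadjusted p = 0.0510, limma adjusted p = 0.582). Pcdhb20 had 0, 9.68 and 13.83 in the 5xFAD mice and no peak in WT mice, and Pcdhb3 had 5.54, 17.13 and 11.49 against 8.06, 7.51 and 6.14 in the WT mice. Pcdhb18 leaned the other way, with 0, 6.61 and 14.62 in the 5xFAD mice and 7.42, 7.72 and 6.19 in the WT mice (-0.72 ± 1.06). The beta protocadherins are near-identical in places, so reads may be split between them. The regions listed for Pcdha4 and Pcdhga9 and exon 3 of Pcdhgb1 are constant exons that 13, 24 and 26 annotated gene names share, and the values of these 3 regions belong to no single protocadherin. The other Pcdhgb1 region, its exon 1, was listed in 5xFAD mouse 2 alone (4.52).

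Without 5xFAD mouse 3, 2 members passed in limma at the gene level, Cntnap4 (3.03) and Pcdhb7 (2.90), both at an adjusted p of 0.0283, where 4.89% of all mRNAs passed. Each was listed in 5xFAD mice 1 and 2 (Cntnap4 7.29 and 7.04, Pcdhb7 8.02 and 5.17) and in no other mouse. At the region level 12 passed without this mouse, against 9.38% of all regions. They were the 5 regions found in all mice of only 1 genotype and 7 regions found in 5xFAD mice 1 and 2 alone, among them 3 on Nrxn2 and others on Cntn2, Cntnap4 and Pcdhb7.

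Peaks were shared more by mouse number than by genotype for numbers 1 and 2. Of the 15 pairs of mice 3 carry the same number, and of the 47 adhesion regions found in exactly 2 mice 24 (51.1%) were shared by the 2 mice of one number. Another 14 were shared by 2 5xFAD mice, 5 by 2 WT mice and 4 by mice of different genotype and number. Over all regions the same-number share was 2285 of 4496 (50.8%), so the adhesion mRNAs followed the whole series in this. Of the adhesion regions found in either mouse, same-number pairs shared 62.1%, 53.8% and 31.0% for numbers 1, 2 and 3, pairs of the same genotype between 29.6% and 42.1%, and pairs alike in neither between 25.8% and 38.9%. WT mouse 3 shared more with the other WT mice (36.4% and 35.8%) than with 5xFAD mouse 3. Examples are a 5′ UTR exon of Nfasc with 27.31 in 5xFAD mouse 1 and 27.82 in WT mouse 1, and Tenm2 exon 3 with 20.4 in 5xFAD mouse 2 and 15.99 in WT mouse 2, each in no other mouse. Deviations of members from their genotype mean correlated between 0.27 and 0.58 for the same number and between -0.44 and -0.05 for different numbers. Deviations from the mean of 3 mice sum to 0, so the negative values follow from the positive ones and are no second observation. No source used here says what the mouse numbers stand for.

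**Figure D5:**
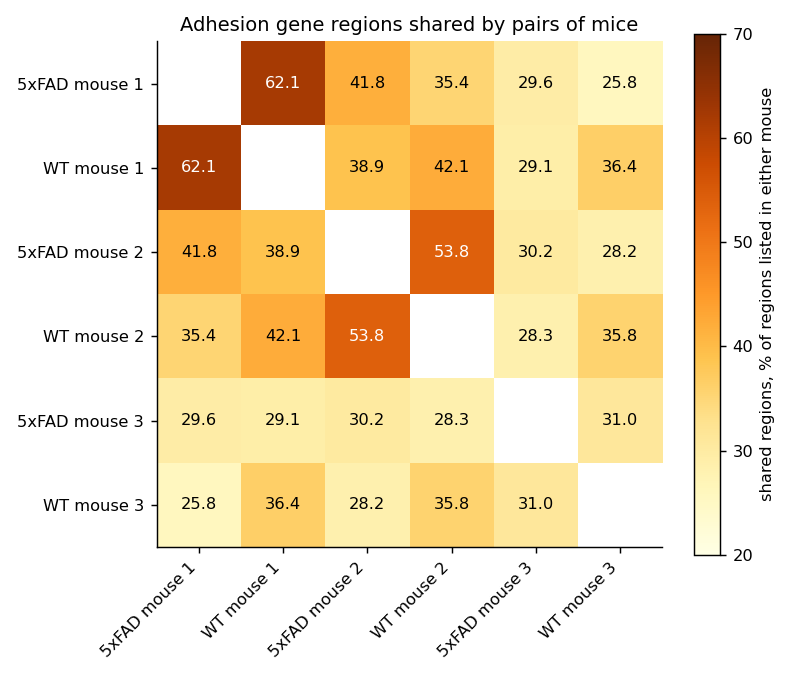
Percent of adhesion regions found in either of 2 mice that were found in both, for every pair of mice (colour scale and printed percent, diagonal blank). Mice numbered 1 shared 62.1% and mice numbered 2 53.8%, above every other pair, and mice numbered 3 shared 31.0%.

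The mice numbered 3 also differed in what they lacked. Lrfn4, Lrrtm1, Slitrk5 and Pcdh7 had a peak in all 4 mice numbered 1 and 2 and in neither mouse numbered 3. Cdh10, Nlgn1, Pcdh9, Pcdha4, Pcdhb15, Pcdhb16, Pcdhga1 and Pcdhgb5 were listed in 5xFAD mouse 3 alone. At the region level 33 adhesion regions were found only in 5xFAD mouse 3, against 17 each in 5xFAD mice 1 and 2 and 3 or 4 in a WT mouse. Over all regions 1540, 1450 and 1794 were found only in 5xFAD mouse 1, 2 or 3, against 764, 550 and 850 in WT mouse 1, 2 or 3. These 33 had a median GC content of 45.5% and a median cytosine content of 23.8%, against 54.1% and 28.2% over all 236 adhesion regions. The pattern of CNN triplets was found in the central 150 bases of 7 of the 24 that were long enough (29.2%), against 122 of 192 (63.5%) over all adhesion regions. The part of this mouse's GC content in the differences was not tested.

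As a group, adhesion regions were close to the rest of the transcriptome in base composition. Their median cytosine content was 28.2% against 28.4% in the 19802 other regions, their GC content 54.1% against 55.6%, and their length 291.5 against 221 bases. The pattern was found in 63.5% of adhesion regions and 66.1% of other regions, and on the opposite strand in 50.0% and 57.9%. Among reliable coding regions of 235 to 256 bases, the range of the 4 teneurin exons, the central 235 bases held it in 14 of 14 adhesion regions, those exons included, and in 189 of all 217 (87.1%). A match is a description of the letters and not of a modified base. Whole exons made up 167 of the 236 regions (70.8%), 36 members had a single region and 18 had 5 or more. Across the 77 members, which are not independent replicates, the number of regions followed the number of exons in the transcript (Spearman rho 0.67) and the mean level followed the number of regions (rho 0.83).

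By the tables' own classes, coding exons held 56.1%, 53.9% and 62.7% of adhesion peaks in the 5xFAD mice and 54.8%, 47.4% and 54.2% in the WT mice, which overlapped. Start codon exons held 11.4%, 11.7% and 10.2% of adhesion peaks in the 5xFAD mice and 11.5%, 12.6% and 8.33% in the WT mice. The other mRNAs had more in that class in every mouse, at 19.0%, 19.4% and 16.5% in the 5xFAD mice and 20.7%, 20.7% and 24.4% in the WT mice. The 5′ UTR held 10.6%, 9.38% and 7.63% of adhesion peaks in the 5xFAD mice and 12.5%, 11.6% and 16.7% in the WT mice, with all 5xFAD mice below all WT mice. The other mRNAs had 8.11%, 7.95% and 6.55% in that class in the 5xFAD mice and 8.75%, 8.54% and 9.05% in the WT mice, which did not overlap either.

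The proteins that work with these molecules were followed in 3 lists by known function, and 0 genes passed in limma in any of them. Of 17 catenins and other cadherin partners 14 were reliable, 12 with a positive and 2 with a negative difference (median 0.78, on one scale 0.26). Dchs1, the ligand of Fat4, had 7.53, 16.08 and 9.36 in the 5xFAD mice and 4.87, 0 and 0 in the WT mice, which did not overlap (2.67 ± 0.86, unadjusted p = 0.0200, limma adjusted p = 0.582). Pkp4, a catenin relative at junctions, had 56.75, 69.88 and 178.94 in the 5xFAD mice and 35.83, 27.41 and 37.93 in the WT mice, again with no overlap (1.39 ± 0.64, limma adjusted p = 0.582).

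Of 45 extracellular partners and other synaptic organizers 27 were reliable, 22 with a positive and 5 with a negative difference as deposited (median 0.41, on one scale -0.14). Sdk2, a homophilic adhesion molecule of retinal synapses, had 114.44, 128.09 and 163.95 in the 5xFAD mice and 66.12, 79.22 and 59.02 in the WT mice, with no overlap (0.98 ± 0.51, limma adjusted p = 0.594). Il1rapl1, a postsynaptic partner of a receptor phosphatase, had 6.99, 0 and 9.4 in the 5xFAD mice and no peak in the WT mice. Of 22 intracellular partners 13 were reliable, 11 with a positive and 2 with a negative difference (median 0.76, on one scale 0.20). Ank3, ankyrin-G, which anchors neurofascin at the initial segment, had 26.66, 25.9 and 131.39 in the 5xFAD mice and 13.18, 17.79 and 3.29 in the WT mice (2.14 ± 0.93, limma adjusted p = 0.582). Sipa1l1, a postsynaptic density scaffold protein, had 62.82, 42 and 63.05 in the 5xFAD mice and 38.47, 27.14 and 11.12 in the WT mice (1.24 ± 0.65, limma adjusted p = 0.598). Neither overlapped between genotypes.

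Marker mRNAs of the cell types of the hippocampus were read the same way, as ac4C levels and not as expression. Microglia markers had a peak for 9 of 12 (Aif1, Trem2 and Tyrobp had none) and summed between 146 and 189 in the 5xFAD mice and between 15.8 and 38.0 in the WT mice. Excitatory neuron markers had a peak for 9 of 10 (Camk2a had none) and summed between 277 and 480 in the 5xFAD mice and between 188 and 228 in the WT mice. Inhibitory neuron markers (8 of 10, without Pvalb and Vip) summed between 75.2 and 104 in the 5xFAD mice and between 46.7 and 62.8 in the WT mice. Vascular markers (3 of 10) summed between 68.5 and 154 in the 5xFAD mice and between 30.1 and 63.3 in the WT mice, and these include Cdh5. Astrocyte markers (7 of 10, without Aqp4, Gja1 and Gjb6) summed between 126 and 208 in the 5xFAD mice and between 72.8 and 133 in the WT mice, and oligodendrocyte markers (7 of 10, with Mog and Ugt8a among those without a peak) between 252 and 336 in the 5xFAD mice and between 167 and 264 in the WT mice. Oligodendrocyte precursor markers (6 of 8, without Vcan and Lhfpl3) summed between 30.6 and 53.5 in the 5xFAD mice and between 27.93 and 33.95 in the WT mice, and choroid plexus and ependyma markers (5 of 8, without Otx2, Kcnj13 and Aqp1) between 13.2 and 85.8 in the 5xFAD mice and between 15.1 and 58.9 in the WT mice. These last 4 sums overlapped between genotypes and the others did not. Over all mRNAs the mean summed fold enrichment was 1.61 times as high in 5xFAD as in WT, and over the adhesion mRNAs 1.81 times. Without 5xFAD mouse 3 these ratios were 1.39 and 1.52. The part of cell composition in the differences of the adhesion mRNAs was not tested.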

How the data were processed

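Hippocampi of 3 5xFAD and 3 WT mice were analysed, with 1 deposited table of ac4C peaks per mouse. Per the labels and the methods of the study, reads were trimmed by the authors with cutadapt 1.9.3 and aligned to mm10 with HISAT2 2.04, and peaks were called per mouse with MACS, pulldown against input. Peaks overlapping IgG peaks were dropped and exons of protein-coding genes kept. The deposited fold enrichment is a ratio against input. The study's methods subtract IgG from the pulldown before that division, but no source used here says whether the deposited column includes this step. No scaling between mice is described. The deposited score is -10 times log10 of the caller's p, with 40 the lowest, and the deposited FDR is in percent: 1 of 640 adhesion peaks had an FDR under 5%. The methods name an adjusted p limit of 0.05 for peaks, which this column does not meet, and it was not used as a filter. The tables hold no read counts, so depth is unknown and the spread between mice measures precision.

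Fold enrichments were summed per mRNA, and peaks of all mice merged into regions at an overlap of at least 1 bp on one strand, the highest peak of a mouse standing for the region. mRNAs or regions with peaks in 2 or more mice of a genotype entered limma (3.58.1, R 4.3.3) as log2(fold enrichment + 1), Benjamini-Hochberg adjusted over the whole table, and were called at an adjusted p under 0.05. The code of the fit was checked on simulated data. These had the same spread for every mRNA, smaller than that of the real values, and no absent peaks. The check therefore does not show whether the fit could find changes in these mice. Exact two-sided permutation tests of 3 against 3 mice cannot go below 0.1 and were not used. RNA-seq detection, which the study also required, was not used here.

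Members, gene lists and tests were chosen with earlier results of these data known. Exon numbers follow GENCODE transcripts. Symbols of a partner list that name 1 gene were counted once. Named genes were members present in all mice of only 1 genotype, the 6 per direction with the smallest p, the 8 with the highest mean, the highest of each family, the 4 strongest regions, the 3 regions per direction with the smallest p and 2 genes per partner list. A few of these go unnamed here, though they remain in the counts. Others named were chosen after their values were seen. Mouse numbers were taken to pair the mice only in the fit with the mouse number as a block. The reason was that same-numbered mice deviated together over all reliable mRNAs (correlations of 0.53, 0.47 and 0.29). The SE and p of single genes, and every statement on overlap between genotypes, ignore this pairing unless the block is named. With the block the unadjusted limma p was 0.0045 for Cntnap1, 0.012 for Cntn2, 0.038 for Ncam2 and 0.057 for Cdh5. For Ncam1 it rose to 0.043, and no member passed after adjustment. Alternatives covered scale, pseudocount, filters on peaks and mice, the value of an mRNA, the mouse number as a block and each mouse left out.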

Additional observations from a re-analysis of the deposited data

How the results depend on the processing

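No member mRNA passed in limma under any alternative that kept all mice. The direction of the median over reliable members held in all of them. It was 0.62 as deposited, 0.047 on one scale, 0.092 after quantile normalization and 0.079 with each mouse centred. This median includes the 12 AD unique members, whose entry favours a positive sign. Over the 45 overlay members the median was 0.48 as deposited and turned to -0.035 on one scale. Leaving out 1 mouse gave medians over reliable members between 0.47 and 0.94. Between 0 and 2 member mRNAs, between 0 and 12 member regions, 0 overlay members and between 0 and 1 extracellular partners were then called. The calls of mRNAs and regions came without 5xFAD mouse 3, and the median was 0.94 without 5xFAD mouse 2. Reliable members numbered between 42 and 57 in 5xFAD and between 28 and 45 in WT, AD unique between 6 and 29, AD absent between 0 and 10 and overlay between 28 and 38. Leaving out a 5xFAD mouse gave 8, 6 and 6 AD unique and 10, 9 and 7 AD absent members for mice 1, 2 and 3, and leaving out a WT mouse gave 28, 29 and 21 AD unique members. The coding share lay between 55.0% and 59.4% in 5xFAD and between 50.8% and 54.5% in WT. Without a limit on the number of mice 20 members were AD unique and 1 AD absent, at a fold enrichment of at least 4 1 was AD absent, and with equal numbers of peaks 7 were AD unique and 4 AD absent. Member regions called numbered 3 on one scale and 5 at a pseudocount of 0.1, against 0. Each of them had a peak in every mouse of 1 genotype and in no mouse of the other.

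With the mouse number as a replicate block 0 members, overlay members and member regions were called (smallest adjusted p in limma 0.234, 0.591 and 0.143), and the block changed no other call. Mean-variance trend and joined latrophilin names, both chosen after seeing the data, gave 0 called members. The overlay fit without a limit on mice was not run, since overlay is defined by that limit.

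The sign of single members turned under 3 scalings, and the cause was not tested. On one scale Cdh2 was -0.22, Celsr3 -0.16, Lphn2 -0.33, Lrfn1 -0.31, Nlgn3 -0.094, Pcdh1 -0.24, Pcdhb3 -0.071, Tenm1 -0.38, Tenm3 -0.086, Tenm4 -0.035 and Tenm4 exon 5 -0.052. After quantile normalization Cdh2 was -0.25, Celsr3 -0.14, Cntnap2 -0.020, Lphn2 -0.31, Lrfn1 -0.28, Nlgn3 -0.15, Pcdh1 -0.22, Pcdhb3 -0.35, Tenm1 -0.45, Tenm3 -0.13, Tenm4 -0.10 and Tenm4 exon 5 -0.046. With each mouse centred Cdh2 was -0.29, Celsr3 -0.12, Lphn2 -0.29, Lrfn1 -0.28, Nlgn3 -0.041, Pcdh1 -0.18, Pcdhb3 -0.066, Tenm1 -0.32 and Tenm3 -0.033. With equal numbers of peaks Pcdhb3 was -0.43, with the highest peak Cdh2 was -0.31 and Lrfn3 0.26, and with the mean peak Cdh2 was -0.37 and Lrfn3 0.26. Leaving out 1 mouse turned Cdh2 (-1.39 to 2.03), Cdh24 (-1.51 to 0.55), Cntn3 (-1.35 to 0.42), Cntnap2 (-0.17 to 1.06), Fat1 (-0.11 to 1.81), Lrfn1 (-0.30 to 0.68), Lrfn3 (-0.48 to 0.29), Lrfn4 (-1.26 to 1.07), Pcdh1 (-0.31 to 0.87), Pcdhb18 (-1.55 to 0.43), Tenm1 (-0.42 to 0.85) and Tenm2 exon 4 (-1.03 to 2.46).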
